A study of Mus musculus with 24 samples.

Results

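The miRNAs numbered miR-3000 to miR-3999 were followed in serum exosomes of mice given toosendanin. They are all array entries that are not controls and whose name holds a number from 3000 to 3999, with any letter or strand suffix: 154 of the 1881 mouse miRNAs on the array, read by 322 probes. The software called 42 of them well above background on at least 1 array, 21 on all 24 arrays and 112 on none. Toosendanin (TSN) is a triterpenoid of Melia species with known liver toxicity. Male BALB/c mice received TSN at 80 mg/kg or vehicle, and serum was collected after 3, 9 or 21 days of dosing. The 6 groups (control day 3, control day 9, control day 21, TSN day 3, TSN day 9 and TSN day 21) hold 4 arrays each, so n = 4 applies to every group mean. Age, dosing route and exosome isolation are not given in the sources used here. Whether each sample came from 1 mouse or from several is not stated, so the p-values cover sample-to-sample spread, which may be technical.

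A miRNA is a short RNA cut from 1 arm of a hairpin precursor, and the suffix 5p or 3p names the arm. It guides a silencing complex to messenger RNAs that pair with its seed, the bases near the 5′ end. Part of the miRNA in blood travels inside vesicles such as exosomes, and serum miRNA is used to follow injury of tissues such as the liver. The number in a name follows the order in which entries were registered. Most entries in this range were found by sequencing of small RNA, and few have an assigned function. miR-3960 is among the exceptions, as it has been studied with its cluster partner miR-2861 in bone-forming cells.

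The mature sequences of the entries on which the results turn are printed 5′ to 3′ with the seed, bases 2 to 8, in capitals. They come from RefSeq (GRCm38.p6), where 139 of the 154 names had an entry. The first 6 were called higher in TSN at several days.
miR-3968: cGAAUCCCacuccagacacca
miR-3963: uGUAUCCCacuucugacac
miR-3082-5p: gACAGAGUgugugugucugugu
miR-3077-5p: cUGCGGACgggugggcgggcaggcc
miR-3081-5p: gACUGGAGcuuggagcggugagc
miR-3091-5p: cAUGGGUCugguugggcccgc
The next 6 were called lower in TSN at all 3 days.
miR-3099-3p: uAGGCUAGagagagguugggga
miR-3059-3p: cCUCUAGGgaagagaagguugg
miR-3067-3p: cCAAGCGGcugcccugggagagg
miR-3620-5p: cUGUGGGCugggcugggaagca
miR-3620-3p: cUGCUCAGccccgcccacccca
miR-3475-5p: aAAUCAUGuacccccacagagg
The last 6 include the miR-3473 entries, of which miR-3473b, miR-3473e and miR-3473f are compared within arrays. They also include miR-3095-3p, which shares a run with those 3 entries.
miR-3473b: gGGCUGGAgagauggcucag
miR-3473e: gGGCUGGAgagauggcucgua
miR-3473a: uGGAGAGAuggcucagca
miR-3473f: cAAAUAGGacuggagagaug
miR-3473g: cAAAAGUGaggcuggggaga
miR-3095-3p: uGGACACUggagagagagcuuuu

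miR-3473b and miR-3473e share the seed GGCUGGA and the first 18 bases. miR-3473b shares 16 bases with miR-3473a, and both miR-3473b and miR-3473e share the 11 bases CUGGAGAGAUG with miR-3473f. The run CUGGAGAGA, 9 bases long, is common to miR-3473b, miR-3473e, miR-3473f and miR-3095-3p. miR-3963 and miR-3968 hold the same 8 bases, AUCCCACU, from base 4 on. Only 4 seeds were shared by a pair of entries in this number range. Besides miR-3473b with miR-3473e these were miR-3064-5p with miR-3085-3p, miR-3070-2-3p with miR-3070-3p and miR-3073a-5p with miR-3073b-5p. Of those 6 further entries miR-3085-3p alone was well above background anywhere, on 3 control arrays.

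In GRCm38.p6 miR-3963 lies at chr3:151023839-151023857 on the minus strand, outside any gene of the annotation used here. miR-3968 lies at chr11:115447969-115447989 (minus strand), within the span of Trim80. miR-3082-5p, at chr17:25831406-25831427 (minus), falls within the spans of Jmjd8 and of Stub1, which encodes a ubiquitin ligase. Both arms of miR-3620 lie within Apex2, a DNA repair enzyme gene, and the 5p arm at chrX:150547424-150547445 (minus) also within Alas2, which encodes the erythroid form of the first enzyme of heme synthesis. miR-3473f lies at chr1:106546536-106546555 (minus) within Bcl2, the inhibitor of cell death, and miR-3095-3p at chr4:58441023-58441045 (minus) within Lpar1, a lysophosphatidic acid receptor gene. miR-3099-3p lies at chr7:6803638-6803659 (plus) within Usp29. Of the 139 entries with a sequence, 124 lay within the span of another gene, with strand not considered.

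The arrays of the arms differed before any single miRNA was compared. TSN and control arrays shared neither a slide nor a scan date, and slide and treatment therefore cannot be told apart in any comparison between them. The 75th percentile of the signal over the 261 probes measured on every array ran from 73.5 to 609 in controls and from 737 to 1750 in TSN, a ratio of 7.23 at day 3, 11.8 at day 9 and 5.87 at day 21 (p = 0.0286 by exact two-sided permutation on each of the 3 days, which is the lowest value that 4 against 4 arrays allow). Each array was divided by this percentile, and the levels given as log2 scaled signal are relative to it. A change is the log2 difference of group means, TSN minus control, with its standard error (SE). "Called" means a limma p-value, Benjamini-Hochberg adjusted over the 441 miRNAs tested, below 0.05. Fewer vesicles in a serum and less of a miRNA in each vesicle cannot be told apart.

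More of these entries were detected on the TSN arrays, as was the case for the array as a whole. Over all 1881 miRNAs, 378 to 457 were well above background on TSN arrays at day 3, 424 to 445 at day 9 and 432 to 467 at day 21, against 192 to 275, 183 to 299 and 184 to 351 on control arrays. Of the entries numbered 3000 to 3999, the TSN arrays had 32 to 37 of the 154 well above background at day 3, 31 to 33 at day 9 and 34 to 37 at day 21, against 25 to 30, 24 to 30 and 24 to 30 on the control arrays. The means were 35 ± 2.16, 32.2 ± 0.957 and 35.8 ± 1.5 (SD) in TSN and 27 ± 2.45, 26 ± 2.83 and 27.5 ± 3 in controls, with no overlap at any day (exact two-sided permutation p = 0.0286 and adjusted p = 0.0286 over the 3 days). miR-3968, miR-3091-5p and miR-3057-5p were well above background on all 12 TSN arrays and on no control array. In the other direction, 4 entries were detected on at least 1 control array and on no TSN array: miR-3475-5p on 10, miR-3535 on 6, miR-3085-3p on 3 and miR-3092-3p on 1.

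**Figure D1:**
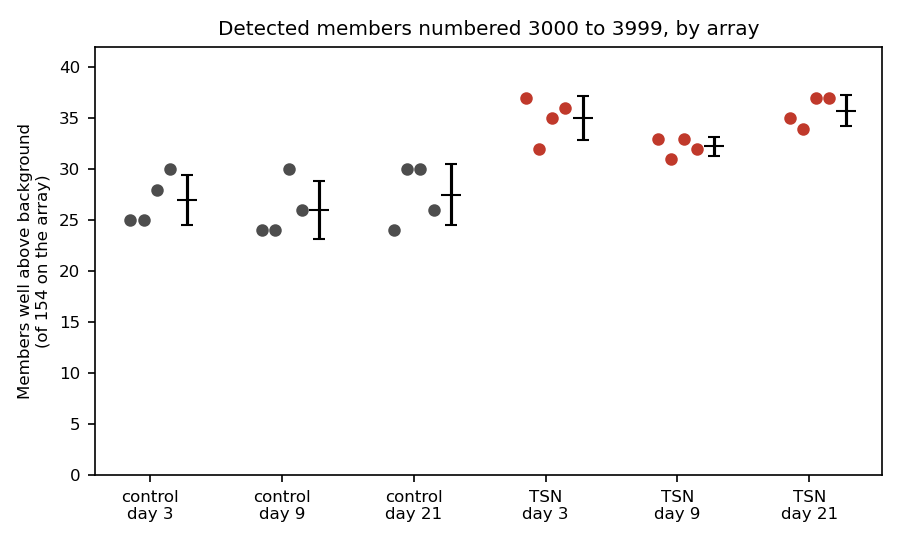
Number of the 154 entries well above background on each array (points; y axis from 0), by group, with the group mean and SD beside the points. Every TSN array lies above every control array of the same day, with 31 to 37 entries against 24 to 30.

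Testing was limited to the 34 entries that some group had well above background on each of its 4 arrays. At day 3, 10 of the 34 were higher in TSN and 9 lower, where 29.3% and 18.6% of all 441 miRNAs were called higher and lower. At day 9, 7 were higher and 12 lower, with 27.7% and 34.5% of all miRNAs called. At day 21, 11 were higher and 8 lower, with 23.1% and 21.8% of all called. The shares of the 34 called in either direction ran from 20.6% to 35.3%. Their median change was 0.01, -0.19 and 0.14 at days 3, 9 and 21, beside 0.10, -0.04 and 0.01 over all 441. Single entries moved far from these medians, from -3.09 to 2.66 at day 3, from -3.62 to 2.54 at day 9 and from -2.33 to 3.45 at day 21.

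Among the 21 entries measured on all 24 arrays, 5 were higher and 8 lower at day 3 (27% and 27.6% of the 152 such miRNAs), 3 and 9 at day 9 (24.3% and 47.4%) and 7 and 7 at day 21 (16.4% and 31.6%). Over the 3 days 5 entries were higher each time (miR-3077-5p, miR-3081-5p, miR-3091-5p, miR-3960 and miR-3968) and 8 were lower each time (miR-3059-3p, miR-3067-3p, miR-3095-3p, miR-3099-3p, miR-3473f, miR-3475-5p, miR-3620-3p and miR-3620-5p). These counts are a description, since miR-3968 and miR-3091-5p entered the test through the TSN groups alone, and miR-3475-5p through the control groups alone. Such a filter favours a difference without forcing it, as miR-3057-5p also entered through the TSN groups alone and was called at no day. No entry was called higher at 1 day and lower at another, and 9 were called at no day. The matching shares over all 441 miRNAs were not counted, so these patterns cannot be read as particular to the entries. Of the 34, the groups did not overlap for 14 entries at day 3, 18 at day 9 and 17 at day 21 (41.2%, 52.9% and 50%), beside 40.6%, 51.9% and 38.8% of all 441 miRNAs.

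The split into higher and lower rests on the scaling. Without scaling, which moved the median miRNA up by 2.1, 2.45 and 2.06 at days 3, 9 and 21, 28, 28 and 32 of the 34 were called higher and at most 2 lower. Read relative to that median, the unscaled values gave 8 higher and 9 lower at day 3, 7 and 9 at day 9, and 3 and 5 at day 21. With normexp background correction, under which the median change fell by 1.62, 1.7 and 1.18, 2, 1 and 3 were called higher and 22, 29 and 20 lower. With the 75th percentile over all probes the counts were 16 higher and 6 lower at day 3 and 19 and 6 at day 9. The authors' deposited values gave 13 higher and 11 lower at day 9. With no filter on dim probes 5 were higher and 19 lower at day 9, and 5 and 8 at day 21. Quantile normalization moved the split little, with 9 higher and 10 lower at day 3, 8 and 11 at day 9, and 11 and 8 at day 21. The shares of all miRNAs called under these alternatives are not given here.

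**Figure D2:**
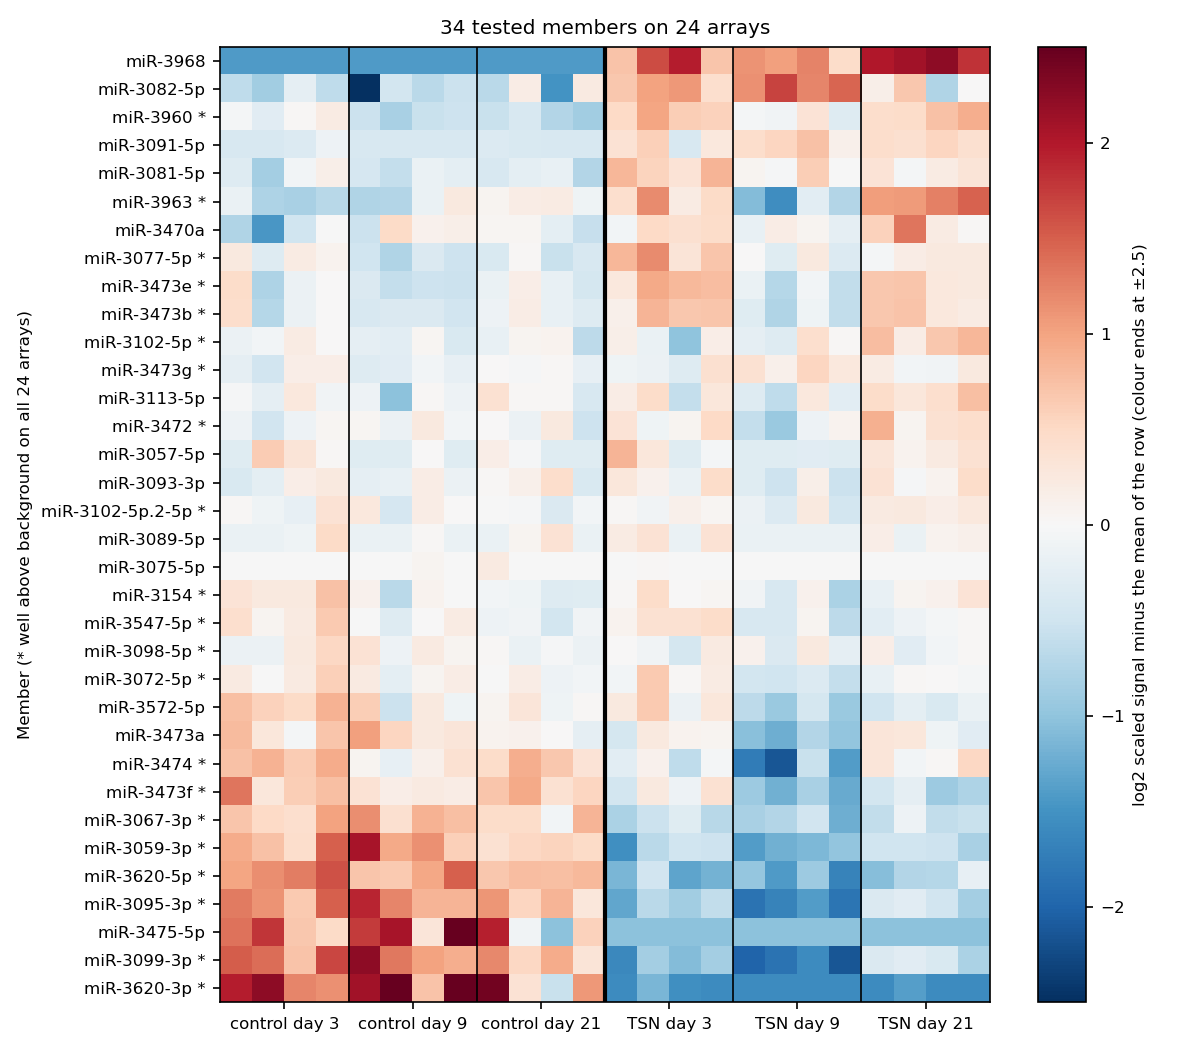
Log2 scaled signal of the 34 tested entries (rows) on the 24 arrays (columns, by group), with each row's mean over the arrays subtracted; red is above and blue below that mean, and the colours end at 2.5 in either direction. miR-3968 is above its row mean in every TSN column, with all control arrays at the floor, most control cells of the rows from miR-3067-3p down lie above the row mean, and miR-3963 and miR-3474 lie below it in the TSN day 9 columns.

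miR-3968 was measured in TSN alone. Its scaled signal was at the floor of -6.21 on all 12 control arrays and well above background on none of them. In TSN it read -4.07, -3.17, -2.83 and -4.10 at day 3, -3.66, -3.76, -3.56 and -4.33 at day 9, and -2.79, -2.69, -2.56 and -2.98 at day 21. The TSN day 21 arrays lay above all 4 of day 9. It passed the filter on dim probes through the TSN groups alone, which favours a difference from controls, so its values are given as a description. Since no control array measured it, the difference is a bound: at least 1.7-fold higher at day 3, 1.06-fold at day 9 and 4.45-fold at day 21. The bound sets the mean TSN level against a limit for each control array, namely the lowest signal that counted there as well above background, or the probe's own signal where that was higher. Before scaling its signal was 69 to 255 in TSN and at most 3.54 in controls. Under normexp background correction it was called higher at no day and lower at days 3 and 9 (adjusted p = 0.0106 and 0.000352), and relative to the median miRNA it lay at 0.60, 0.20 and 1.04. The second, shorter probe of miR-3968 was well above background on 1 array.

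miR-3960 was measured on all 24 arrays and was higher at each day. At day 3 it read 3.22, 3.71, 3.35 and 3.31 in TSN against 2.68, 2.45, 2.75 and 2.94 in controls. At day 9 it read 2.69, 2.65, 3.08 and 2.40 against 2.19, 1.92, 2.17 and 2.21, and at day 21 3.17, 3.18, 3.46 and 3.64 against 2.17, 2.33, 1.99 and 1.86. The groups did not overlap at any day. The changes were 0.70 (SE 0.15, adjusted p = 0.000659), 0.58 (adjusted p = 0.00235) and 1.28 (adjusted p = 1.39e-06). In the authors' deposited values, read relative to their median, the change was -0.20 at day 3 and -0.12 at day 9, so the rise at those days turned, while at day 21 it was 0.63. Its unscaled signal was 7360 to 16800 in TSN and 341 to 2420 in controls.

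miR-3077-5p and miR-3081-5p were also called higher at each day. miR-3077-5p rose by 0.70 (SE 0.173, adjusted p = 0.00206), 0.43 (adjusted p = 0.0372) and 0.49 (adjusted p = 0.0279) at days 3, 9 and 21. With the replicate numbers as a block, the day 9 call was lost (adjusted p = 0.0571), and with the block at day 9 only it was kept (adjusted p = 0.0328). Its calls at days 9 and 21 were lost in 5 and 6 of the 8 fits that left out 1 array, with adjusted p up to 0.133 and 0.0828, and the lowest changes were 0.32 without TSN day 9 replicate 3 and 0.41 without control day 21 replicate 3. miR-3081-5p, well above background on 23 arrays, rose by 0.92 (adjusted p = 0.000484), 0.52 (adjusted p = 0.0247) and 0.59 (adjusted p = 0.0173), and its groups did not overlap at any day. Its call was lost in 3 such fits at day 9 (without TSN day 9 replicate 3, control day 9 replicate 1 or control day 9 replicate 2) and without control day 21 replicate 4. miR-3091-5p was called at all 3 days, but no control array had it well above background and it passed the filter through the TSN groups alone, so the call is no independent result and no size was measured. Relative to the median miRNA without scaling it lay at -0.84, -0.50 and -0.24, while its unscaled signal was higher in TSN.

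miR-3963 was higher at days 3 and 21 and miR-3082-5p at days 3 and 9. miR-3963 read 3.99, 4.75, 3.78 and 4.06 in TSN at day 3 against 3.41, 2.80, 2.77 and 2.88 in controls, and 4.62, 4.64, 4.84 and 5.05 at day 21 against 3.65, 3.76, 3.78 and 3.47. The groups were separate at both days, with changes of 1.18 (SE 0.259, adjusted p = 0.000731) and 1.13 (adjusted p = 0.00145). At day 9 it read 2.50, 2.02, 3.31 and 2.84 in TSN against 2.82, 2.85, 3.42 and 3.82. These overlapped, and the change of -0.56 did not pass (adjusted p = 0.066). Before scaling, miR-3963 was still 8.01 times higher in TSN at day 9, beside 16.4 times at day 3 and 12.8 times at day 21. Its second probe, also measured on all arrays, gave 1.37, -0.25 and 1.35.

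miR-3082-5p, which carries repeats of gu, read -1.15, -0.60, -1.06 and -0.82 in TSN at day 9 against -5.27, -2.75, -2.95 and -2.83 in controls. The lowest of these was control day 9 replicate 1, the 1 array on which it was not well above background. Every TSN array was above every control array, and the change was 2.54 (SE 0.459, adjusted p = 8.64e-05). At day 3 it was 1.38 (adjusted p = 0.0175), also without overlap, and at day 21 0.46 (adjusted p = 0.48), with overlap. Under normexp background correction the calls of days 3 and 9 were lost (adjusted p = 0.828 and 0.0857).

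A further 6 entries were called higher at 1 or 2 days. miR-3473b (0.68 and 0.57, adjusted p = 0.00949 and 0.0302) and miR-3473e (0.82 and 0.62, adjusted p = 0.00331 and 0.0237) were higher at days 3 and 21. For both, the groups overlapped at day 3 and were separate at day 21. miR-3470a was called at the same days, but it was well above background on 1 of the 4 control arrays at day 3 and on 2 at day 21. It passed the filter through the TSN groups alone, so these calls are no independent result and the size of its change is not measured. miR-3473g was higher at day 9 (0.55, SE 0.151, adjusted p = 0.00389; no overlap). miR-3102-5p (0.78, adjusted p = 0.009) and miR-3472 (0.55, adjusted p = 0.0446) were higher at day 21. Of these day 21 calls, those of miR-3470a, miR-3472, miR-3473b and miR-3473e were lost in 6, 6, 5 and 3 of the 8 fits that left out 1 array, with adjusted p up to 0.208, 0.166, 0.0866 and 0.0782. Without control day 21 replicate 4 all 4 of these calls were lost.

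**Figure D3:**
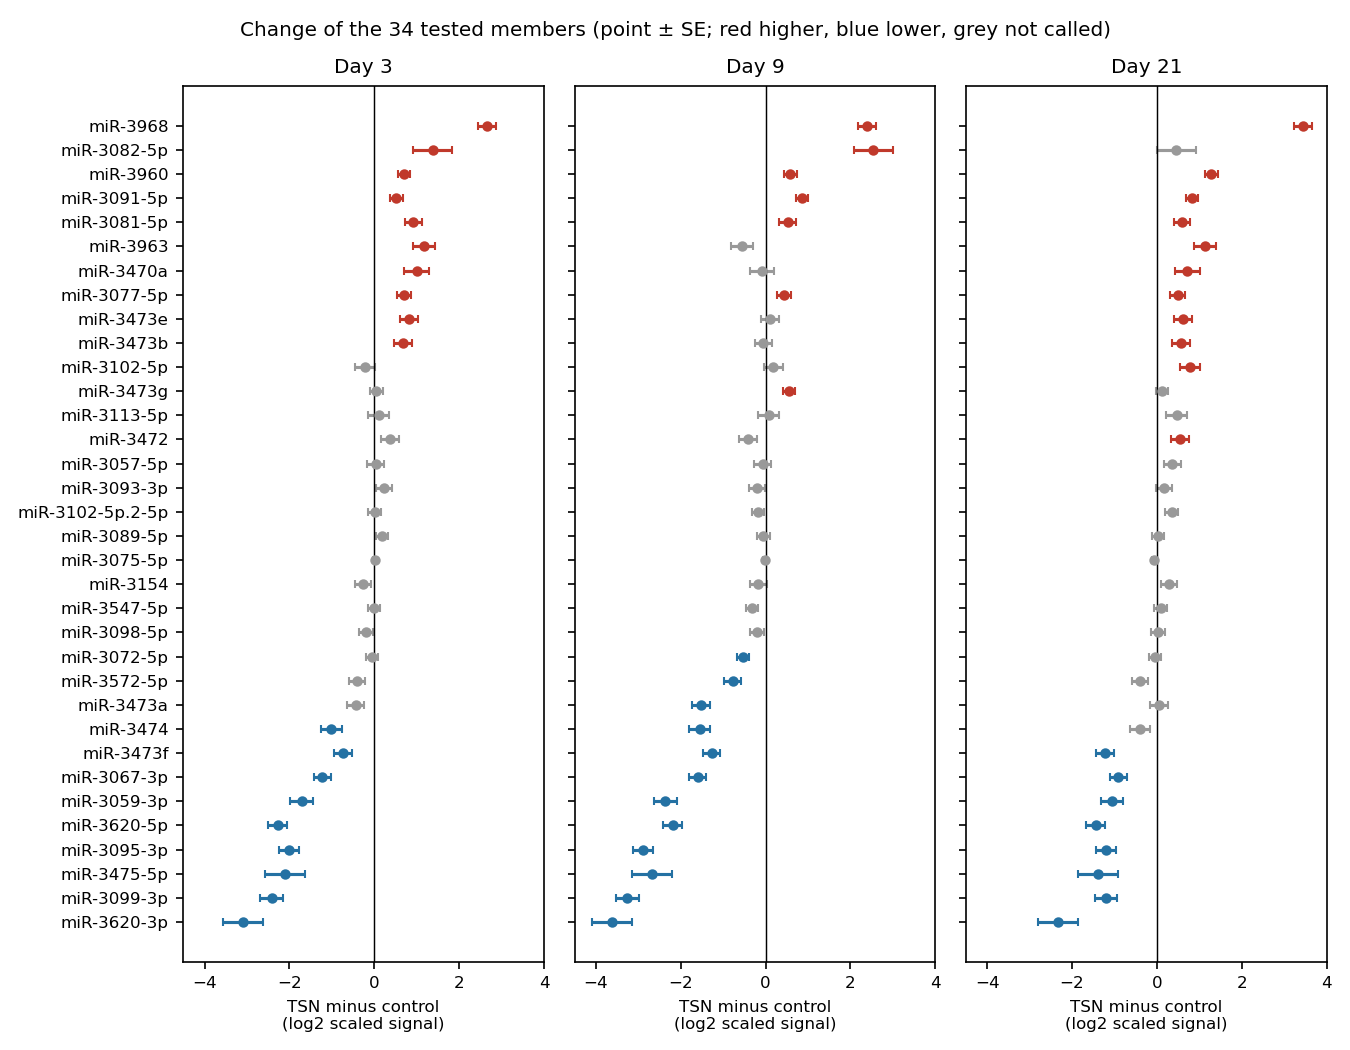
Change of each of the 34 tested entries at days 3, 9 and 21 (x axis, TSN minus control, log2 scaled signal; points with SE), ordered by the mean over the 3 days; red is called higher, blue called lower and grey not called. The same 8 entries are blue in all 3 panels, miR-3963 is red at days 3 and 21 and grey at day 9, and miR-3082-5p is grey at day 21.

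Of the 8 entries that were lower at each day, all but miR-3475-5p were measured on all 24 arrays. miR-3095-3p read -1.83, -1.21, -1.41 and -1.16 in TSN at day 3 against 0.77, 0.59, 0.12 and 0.96 in controls. At day 9 it read -2.39, -2.20, -1.94 and -2.37 against 1.37, 0.68, 0.32 and 0.31, and at day 21 -0.90, -0.83, -1.02 and -1.39 against 0.57, -0.01, 0.32 and -0.26. Each TSN array was below each control array, with the widest gap at day 9. The changes were -2.01 (SE 0.236, adjusted p = 7.73e-07), -2.89 (adjusted p = 6.85e-09) and -1.19 (adjusted p = 0.000383). Its 2 probes differed in change by at most 0.03.

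miR-3099-3p read -4.62, -3.85, -4.09 and -3.85 in TSN at day 3 against -1.50, -1.61, -2.29 and -1.34, and fell by 2.42 (SE 0.27, adjusted p = 4.53e-07). It fell by 3.26 at day 9 (adjusted p = 7e-09) and by 1.20 at day 21 (adjusted p = 0.00118), with no overlap at any day. The second probe of miR-3099-3p, well above background on 13 arrays, gave changes of -0.04, -0.39 and 0.02. The size of its fall thus rests on the probe, and all other values given for miR-3099-3p are from the first. miR-3059-3p fell by 1.71, 2.36 and 1.06 (adjusted p = 2.15e-05, 3.29e-07 and 0.00285), miR-3067-3p by 1.23, 1.60 and 0.91 (adjusted p = 4.03e-05, 1.27e-06 and 0.00111) and miR-3620-5p by 2.28, 2.19 and 1.44 (adjusted p = 9.03e-08, 8.03e-08 and 3.03e-05). The groups of these 3 entries did not overlap at any day. Relative to the median miRNA under normexp background correction, miR-3067-3p lay at 0.33, 0.05 and 0.17 and miR-3095-3p at 0.08 at day 21. Against that median these falls turned, while before the median was subtracted both entries were still lower in TSN.

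miR-3620-3p and miR-3475-5p were called lower on the scaled values at each day, while their unscaled signal moved far less. The ratio of unscaled signal, TSN over control, was 0.702, 0.703 and 0.93 at days 3, 9 and 21 for miR-3620-3p. For miR-3475-5p it was 0.923, 0.766 and 0.996. Without scaling, the lower call was kept for miR-3620-3p at days 3 and 9 and for miR-3475-5p at day 9, and was lost at their other days. The unscaled signal of miR-3620-3p was 18.5, 19.9, 20.7 and 19.1 in controls of day 3 and 12.2, 13.4, 15.4 and 14.1 in TSN, and over all days it spanned 15.3 to 26.2 in controls and 12.2 to 18.2 in TSN. Over the 12 control arrays its highest value was 1.71 times its lowest, whereas that ratio ran from 5.19 to 11.5 for the other 20 entries measured on every array and was 8.29 for the 75th percentile of the arrays. On the scaled values it fell by 3.09, 3.62 and 2.33 (adjusted p = 1.66e-05, 2.13e-06 and 0.000458), with 9 of the 12 TSN arrays at the floor. miR-3475-5p had an unscaled signal of 7.51 to 12.4 in controls and 7.38 to 9.57 in TSN, with a highest over lowest of 1.65 in controls. It was well above background on no TSN array, on all 4 control arrays at days 3 and 9 and on 2 at day 21. On the scaled values it was at the floor of -6.21 on all TSN arrays and its means in controls were -4.11, -3.53 and -4.83, and as it passed the filter through the control groups alone, no fold is given. At day 21 its groups overlapped, and the call was lost without control day 21 replicate 1 (-0.85, adjusted p = 0.107) or replicate 4 (adjusted p also above 0.05).

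A further 4 entries were called lower at 1 or 2 days. miR-3474 read 0.02, 0.39, -0.34 and 0.25 in TSN at day 3 against 1.03, 1.16, 0.93 and 1.22, and -1.46, -1.85, -0.27 and -1.11 at day 9 against 0.36, 0.08, 0.41 and 0.67. It fell by 1.01 (SE 0.245, adjusted p = 0.00177) and 1.55 (adjusted p = 2.09e-05), with separate groups, and stood at -0.40 at day 21 (adjusted p = 0.213). miR-3473a (-1.52) and miR-3072-5p (-0.53) were lower at day 9. miR-3572-5p was called lower at day 9 as well, but 1 of the 4 control arrays had it well above background there, so the size is not measured, and it was detected on 12 TSN and 4 control arrays. miR-3072-5p, which lies within Mirg, a transcript of the imprinted Dlk1-Dio3 region, reversed to 0.05 relative to the median miRNA with the 75th percentile over all probes, to 0.58 without scaling and to 0.45 under normexp. Relative to the median miRNA, miR-3474 stood at 0.83 and 0.33 under normexp at days 3 and 9, and before that median was subtracted it was still lower.

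The unscaled signals show what the scaling does to these calls. Over the 21 entries on all 24 arrays, the ratio of TSN to control (geometric means) ran from 0.702 to 16.4 at day 3, from 0.703 to 17.7 at day 9 and from 0.93 to 14.2 at day 21. The ratio was above that of the arrays' 75th percentile for 8, 5 and 12 entries and below 1 for 1 entry at each day, miR-3620-3p. miR-3960, miR-3473g and miR-3077-5p had ratios of 17.7, 17.2 and 15.9 at day 9. miR-3099-3p, miR-3095-3p and miR-3059-3p had 1.24, 1.59 and 2.3. The entries called lower, apart from miR-3620-3p and miR-3475-5p, thus had more signal on the TSN arrays before scaling, and less than the array as a whole.

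**Figure D4:**
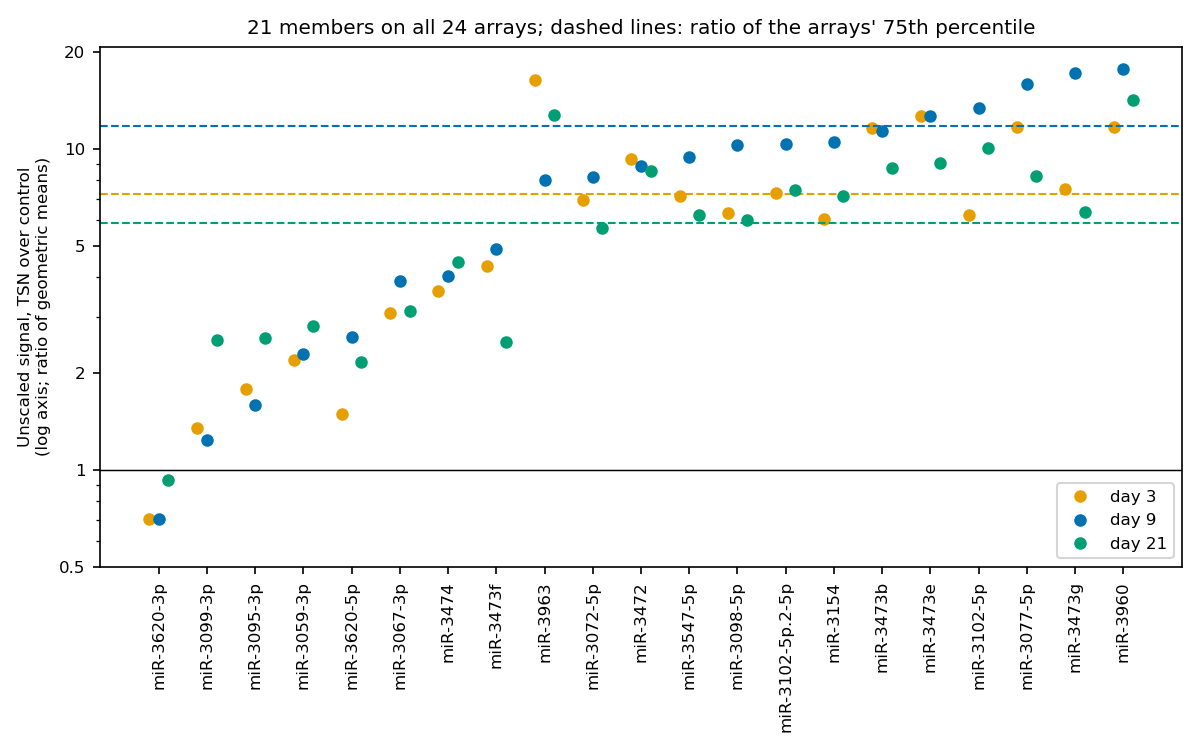
Ratio of unscaled signal, TSN over control (log y axis, geometric means of 4 arrays each), for the 21 entries measured on all 24 arrays at 3 days, ordered by the day 9 ratio; dashed lines mark the ratio of the arrays' 75th percentile (7.23, 11.8 and 5.87 at days 3, 9 and 21). miR-3620-3p lies below 1, and the entries called lower lie between 1 and the dashed line of their day.

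Entries with related sequences stood at different changes. Within an array a ratio of 2 entries does not depend on the scaling, so 10 pairs of entries measured on every array, from the same hairpin or with at least 9 bases in common, were compared as differences of log2 unscaled signal; the pairs were chosen after the values were seen. miR-3473b minus miR-3473f was -1.33 to -1.06 in controls and -0.02 to 0.48 in TSN at day 3, -1.09 to -0.85 and 0.11 to 0.38 at day 9, and -1.17 to -0.89 and 0.61 to 0.86 at day 21. Control and TSN arrays did not overlap at any day. The mean difference in TSN exceeded that in controls by 1.42, 1.22 and 1.80 (exact two-sided permutation p = 0.0286 each, the smallest that 4 against 4 arrays can give). After adjustment over the 30 tests p was 0.0504, so no pair passed 0.05. For miR-3473e minus miR-3473f the TSN mean exceeded the control mean by 1.56, 1.38 and 1.85, also without overlap.

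miR-3473b and miR-3473e, which share the seed and 18 bases, differed by less between the arms. Their difference was 0.22 to 0.27 in controls and 0.09 to 0.14 in TSN at day 3, a shift of -0.13 (exact two-sided permutation p = 0.0286, adjusted p = 0.0504), and the shifts at days 9 and 21 were -0.16 and -0.05 (adjusted p = 0.122 and 0.0857). For miR-3473b minus miR-3095-3p the TSN mean exceeded the control mean by 2.69, 2.85 and 1.76 at days 3, 9 and 21 with no overlap. For miR-3473f minus miR-3095-3p the shift was 1.27 and 1.62 at days 3 and 9 and -0.04 at day 21 (exact p = 0.914), where the groups overlapped. On the scaled values miR-3473f fell by 0.74, 1.27 and 1.23 (adjusted p = 0.00555, 2.92e-05 and 7.07e-05). Relative to the median miRNA it stood at 0.01 without scaling at day 3 and at 0.90 and 0.34 under normexp at days 3 and 9. Against that median these falls turned, while before its subtraction the normexp changes were still below 0. The 4 probes of miR-3473f differed in change by at most 0.07.

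Probes limit what can be said of the miR-3473 entries. The probe used for miR-3473b pairs with its bases 5 to 20, and the same run occurs whole in miR-3473a, so these 2 entries may share signal. This was the only one of 30 tested entries with a sequence whose probe target occurs in another miRNA of the array. The second probe of miR-3473e, 1 base shorter and well above background on 21 arrays, gave changes of -0.83, -1.82 and -0.36, against 0.82, 0.11 and 0.62 from the first. The mean of its probes gave -0.01 at day 3 and the authors' deposited values -0.19 relative to their median, so the call of miR-3473e rests on the probe. The differences of miR-3473e from miR-3473b, miR-3473f and miR-3095-3p also used its first probe alone and were not repeated with the second. In 13 of the 21 entries more than 1 probe was measured on all arrays, and their changes differed by at most 0.31.

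**Figure D5:**
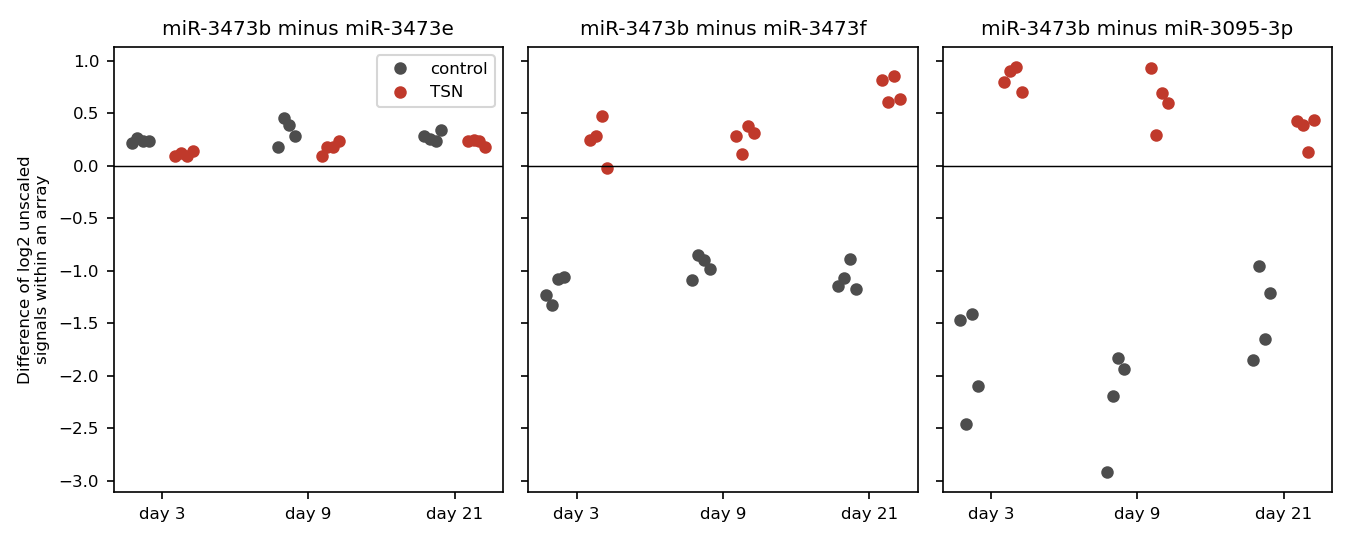
Difference of log2 unscaled signal within each array (y axis; 1 point per array, control and TSN side by side at 3 days) for miR-3473b against miR-3473e, miR-3473f and miR-3095-3p. The first difference stays between 0.09 and 0.46, while the other 2 are below 0 on every control array and, apart from 1 TSN array at -0.02, above 0 in TSN.

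Both arms of the miR-3620 hairpin were measured on all arrays. The 5p arm minus the 3p arm was 0.25 to 2.45 in controls and 2.59 to 3.44 in TSN at day 9, a shift of 1.88 with no overlap (exact two-sided permutation p = 0.0286, adjusted p = 0.0504). At days 3 and 21 the shift was 1.08 and 1.22, with overlap (adjusted p = 0.0857 and 0.149). The signal of the 3p arm hardly followed the brightness of the arrays, so this difference rises with brightness. On control day 21 replicates 1 to 4 it was 0.45, 2.63, 3.52 and 1.94, where the 75th percentile was 81.4, 355, 609 and 182. A change between the arms of the hairpin and the brightness of the arrays cannot be told apart here. miR-3102-5p and miR-3102-5p.2-5p, neighbours on 1 hairpin within Arhgef17, differed by shifts of -0.23, 0.36 and 0.44 that did not pass (adjusted p = 0.673, 0.149 and 0.214). miR-3102-5p against miR-3547-5p, with 9 bases in common, shifted by 0.50 at day 9 without overlap (exact two-sided permutation p = 0.0286, adjusted p = 0.0504) and by -0.20 and 0.69 at days 3 and 21 (adjusted p = 0.673 and 0.0857). miR-3474 against miR-3067-3p, also with 9 bases in common, shifted by 0.22, 0.05 and 0.51 (adjusted p = 0.429, 0.914 and 0.274).

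The entries nearest to no change at day 3 were miR-3102-5p.2-5p (0.01, SE 0.152), miR-3547-5p (-0.01, SE 0.149) and miR-3075-5p (0.01, SE 0.0472). At day 9 they were miR-3075-5p (-0.02), miR-3473b (-0.05, SE 0.206) and miR-3089-5p (-0.05, SE 0.143), and at day 21 miR-3098-5p (0.03, SE 0.167), miR-3089-5p (0.03) and miR-3473a (0.05, SE 0.203). miR-3075-5p and miR-3089-5p lay at or close to the floor in most groups, so their small changes carry little information. miR-3098-5p stayed within 0.20 of 0 at all 3 days (-0.19, -0.20 and 0.03), and miR-3154 stood at -0.26, -0.17 and 0.28. miR-3057-5p, detected on all TSN arrays and on no control array, was near the floor in both arms after scaling and was called at no day.

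2 comparisons lie within a slide. TSN day 21 against TSN day 9, both on 1 slide, had 17 of the 34 entries higher and 1 lower, where 30.6% and 12.7% of all miRNAs were called. Among the 21 entries on all arrays 12 were higher and none lower by limma, also at an unadjusted p under 0.05 (43.4% and 16.4% of such miRNAs called), and the median change of the 34 was 0.48 beside 0.18 over all miRNAs. miR-3963 rose by 2.12 (SE 0.259, adjusted p = 9.2e-06), miR-3474 by 1.66 (adjusted p = 4.91e-05) and miR-3099-3p by 1.43 (adjusted p = 0.000387), each with the 4 arrays of day 21 above the 4 of day 9. miR-3082-5p fell by 1.36 (SE 0.459, adjusted p = 0.0206), and its day 21 arrays, at -2.14, -1.61, -3.04 and -2.27, lay below all of day 9. The call of miR-3082-5p was lost without TSN day 9 replicate 2 or TSN day 21 replicate 3, and the count of 17 was 11 without TSN day 9 replicate 2 or TSN day 21 replicate 4. With the 75th percentile over all probes 5 entries were higher, and without scaling 3.

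In control day 9 against control day 3, on another slide, no entry was higher and 3 were lower, where 9.75% and 4.31% of all miRNAs were called; at an unadjusted p under 0.05, limma gave 1 higher and 7 lower. miR-3960 fell by 0.58 (SE 0.15, adjusted p = 0.0224) and miR-3077-5p by 0.58 (SE 0.173, adjusted p = 0.0338). The third, miR-3572-5p, was well above background on 1 of 4 arrays in each group, so its change is not measured. The groups of miR-3960 and miR-3077-5p did not overlap. Each of the 3 calls was lost in 3 to 6 of the 8 fits that left out 1 array, and the count was 0 to 5. The TSN rise of miR-3960 and miR-3077-5p at day 9 is therefore measured against controls that were lower than those of day 3.

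The difference between days in the effect of TSN was tested with interaction terms. From day 3 to day 9 it fell for 2 entries and rose for none (15.2% and 3.85% of all miRNAs called; at an unadjusted p under 0.05, limma gave 1 entry that rose), miR-3963 by 1.75 (SE 0.366, adjusted p = 0.00226) and miR-3473a by 1.08 (adjusted p = 0.0117). From day 9 to day 21 it rose for 9 entries and fell for 1 (23.4% and 11.8%). The smallest adjusted p were those of miR-3099-3p (2.05, SE 0.381, adjusted p = 0.000823), miR-3473a (1.57, adjusted p = 0.000823) and miR-3095-3p (1.70, adjusted p = 0.00105), and miR-3082-5p fell by 2.09 (SE 0.649, adjusted p = 0.0181). From day 3 to day 21 it rose for miR-3099-3p (1.22, adjusted p = 0.0412) and miR-3102-5p (1.00, adjusted p = 0.0484) and fell for none by limma, also at an unadjusted p under 0.05 (4.08% and 9.3% of all called). These 2 calls were lost in 10 and 12 of the 16 fits that left out 1 array. With the 75th percentile over all probes 1 entry rose from day 9 to day 21 and no entry was called from day 3 to day 21. No interaction can be set apart from slides, since the 6 groups lie on 4 slides that hold 1 arm each.

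The detected entries were rich in guanine. The 20 of the 21 entries on all arrays that have a RefSeq sequence had a median guanine share of 46.3% and a median G+C share of 64.3%, against 22.7% and 50% for the 101 entries with a sequence that were detected on no array. Over the array the corresponding medians were 40.5% and 56.5% for miRNAs on all 24 arrays and 22.7% and 50% for those on none, so the same order held for all number ranges together. miR-3077-5p (56% G), miR-3547-5p (64%) and miR-3102-5p (59.1%) were at the high end, and miR-3963 (10.5%) and miR-3620-3p (13.6%) at the low end. Probes of the 30 tested entries with a sequence were 11 to 18 bases long, all reached the 3′ end of their miRNA, and 17 began after base 8, outside the seed. These shares are a description, with no test.

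The share of entries measured on every array is given for each number range as a description, with no test. Of the 154, 13.6% were well above background on all 24 arrays, beside 8.42% of the 819 entries of let-7 and miR-1 to miR-999, 5.56% of 126 from miR-1000 to miR-2999, 8.33% of 180 from miR-5000 to miR-6895, 7.5% of 400 from miR-6896 to miR-7094 and 4.95% of 202 above. The share detected on at least 1 array was 27.3% here and 23.8% to 33% in the other ranges. The hairpins of miR-3074, miR-3065, miR-3071 and miR-3544 overlap those of miR-24, miR-338, miR-136 and miR-337 on the opposite strand, and none of their entries on the array was well above background on any array.

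miRNAs that mark blood cells and tissues moved with the groups too. Of 15 such markers 14 were tested and 7 were measured on all arrays. 3 were higher and 2 lower at day 3, 8 and 4 at day 9, and 1 and 4 at day 21. The 8 higher at day 9 were all 3 markers of red cells, all 3 of striated muscle and 2 of the 3 of hepatocytes. The 4 lower were miR-223-3p and miR-126a-3p of platelets and miR-142a-3p and miR-150-5p of leukocytes. The muscle markers miR-1a-3p, miR-133a-3p and miR-133b-3p were well above background on 15, 11 and 13 of the 24 arrays. Their day 9 means were -2.24, -1.24 and 0.49 in TSN and -5.01, -5.78 and -5.68 in controls. The groups through which they passed the filter are not given here. A filter passed through TSN alone would favour a difference, so the calls of these 3 markers are a description. The summed scaled level of the 15 markers ran from 76.7 to 94.7 on TSN day 9 arrays, from 42.9 to 63.8 at TSN day 21 and from 31.2 to 49.4 at TSN day 3, against 35 to 65.2, 55.6 to 98.3 and 33.2 to 56.4 in controls of days 9, 21 and 3. This sum is taken before log2 and mainly follows miR-451a of red cells, so it is no joint measure of the markers. The group means of miR-451a were 5.03 to 6.18 in log2, and no other marker had a group mean above 2.64. miR-155-5p was above background on no array. The part of these cell types in the changes of the entries from miR-3000 to miR-3999 was not tested.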

How the data were processed

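Serum exosome RNA was labelled with Cy3 and hybridised to 24 Agilent 1-colour miRNA arrays, per the labels. The deposited scanner intensity values were made with Feature Extraction, version 10.7.1.1 per the file headers, and are corrected for background but not scaled between arrays. The deposited value table was taken as log2 from a comparison with the scanner files; how the authors scaled and centred it is not given in the sources used here, and it served as an alternative.

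Outlier spots were left out and the spots of a probe averaged. Scaling used the 75th percentile of each array, taken over the 261 probes that every array had well above background. Values were floored at 0.0135 (-6.21 in log2) and log2 transformed. A probe was well above background where more than 0.5 of its spots were, and the probe with the highest mean stood for a miRNA. The 441 miRNAs that some group had well above background on each of its 4 arrays entered 1 limma fit (3.58.1, R 4.3.3) with a mean per group, for 8 comparisons, adjusted by Benjamini-Hochberg over all 441. Single values were tested by exact permutation of arrays. The fit was tested on simulated data. Precision is limited by the number of arrays.

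Replicate numbers were shared by the groups. At day 9 every same-numbered pair deviated together (r from 0.204 to 0.357), while at the other days the lowest r was below 0.1. The main fit and the exact permutation tests did not use this pairing, so their day 9 p-values treat the arrays as unpaired. The pairing entered only through the replicate blocks given as alternatives. The entries, lists and pairs were chosen with earlier results of these data known. Named are the entries on all arrays, those with the largest called changes in each comparison, those sharing a seed or hairpin, and those nearest to no change. Alternatives covered background, scaling, filter, floor, probe choice, block and left-out arrays.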

Additional observations from a re-analysis of the deposited data

Results flagged for a closer look

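In 11 of the 126 groups of 4 arrays examined, 1 array stood far from the other 3; about 1 in 20 groups does so by chance. On the log2 scaled signal, miR-3059-3p was low on TSN day 3 replicate 1 (-4.79, nearest other array -3.92) and on TSN day 21 replicate 4 (-4.06, nearest -3.76). miR-3067-3p was high on TSN day 21 replicate 2 (-1.52, nearest -1.95), and miR-3077-5p low on TSN day 21 replicate 1 (-2.21, nearest -1.97). miR-3154 was low on control day 9 replicate 2 (-3.06, nearest -2.40) and high on TSN day 3 replicate 2 (-1.92, nearest -2.33). miR-3547-5p was low on control day 21 replicate 3 (-1.52, nearest -1.20). miR-3620-3p was above the other arrays, which lay at or near the floor, on TSN day 3 replicate 2 (-5.78) and TSN day 21 replicate 2 (-6.02). miR-3960 was low on control day 9 replicate 2 (1.92, nearest 2.17), and miR-3963 was high on control day 3 replicate 1 (3.41, nearest 2.88).

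In 14 cases limma's interaction term found that the effect of TSN differed between days. From day 3 to day 9 the effect shifted by -1.75 for miR-3963 and -1.08 for miR-3473a. From day 9 to day 21 it shifted by 2.05 for miR-3099-3p, 1.70 for miR-3095-3p, 1.69 for miR-3963, 1.57 for miR-3473a, 1.30 for miR-3059-3p, 1.15 for miR-3474, 1.08 for miR-3968, 0.96 for miR-3472 and 0.69 for miR-3960, and by -2.09 for miR-3082-5p. From day 3 to day 21 it shifted by 1.22 for miR-3099-3p and 1.00 for miR-3102-5p. Each of these contrasts draws on arrays of several slides, none of which held both arms, so a part of the slides in them cannot be told apart from TSN.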

How the results depend on the processing

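Counts are of the entries called higher and lower. For TSN against control they were 10 and 9 at day 3, 7 and 12 at day 9 and 11 and 8 at day 21; for TSN day 21 against day 9, 17 and 1; for the change of effect, 0 and 2 (day 3 to 9), 9 and 1 (day 9 to 21) and 2 and 0 (day 3 to 21); for control day 9 against day 3, 0 and 3. With the 75th percentile over all probes, 16 were higher at day 3, 19 higher and 6 lower at day 9, 5 and 2 in TSN day 21 against day 9, 0 lower from day 3 to 9, 1 and 2 from day 9 to 21, 0 higher from day 3 to 21 and 0 lower in controls. Without scaling they were 28 and 1, 28 and 2, and 32 and 0 at days 3, 9 and 21, 3 and 0 in TSN, 0 lower from day 3 to 9, 0 higher from day 9 to 21, 0 higher from day 3 to 21 and 0 lower in controls; relative to the median miRNA they were 3 and 5 at day 21, 3 and 0 in TSN, 5 higher from day 9 to 21, 0 from day 3 to 21 and 0 lower in controls. Normexp gave 2 and 22, 1 and 29, and 3 and 20, 7 higher in TSN, 1 lower from day 3 to 9, 4 and 0 from day 9 to 21, 0 higher from day 3 to 21 and 0 lower in controls. With no filter, where many residual variances were 0 and the fit is unreliable, 19 were lower at day 9, 5 higher at day 21, 10 and 0 in TSN, 1 lower from day 3 to 9, 5 and 0 from day 9 to 21, 0 higher from day 3 to 21 and 0 lower in controls. With entries on all 24 arrays alone, hence fewer tested, 5, 3 and 7 were higher at days 3, 9 and 21, and 0 lower in TSN and from day 9 to 21. Quantile normalization gave 1 and 1 from day 3 to 9, 6 higher from day 3 to 21 and 7 lower in controls. The authors' values gave 13 higher at day 9, 10 in TSN, 1 and 1 from day 3 to 9, 2 lower from day 9 to 21 and 6 lower in controls. The mean of the probes gave 1 higher from day 3 to 21. Except where stated above, the cause was not tested.

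The replicate block gave 6 higher and 12 lower at day 9, 0 higher from day 3 to 21 and 1 lower in controls; as a block at day 9 only it gave 7 and 13 at day 9, 1 higher from day 3 to 21 and 5 lower in controls. The slide as a block could not be fitted for comparisons of the arms; the 8 arrays of a slide alone gave 17 and 1 in TSN.

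Signs turned, relative to the median miRNA, under normexp for miR-3067-3p (0.33, 0.05 and 0.17 at days 3, 9 and 21), miR-3091-5p (-0.04 and -0.01 at days 9 and 21), miR-3095-3p (0.08 at day 21), miR-3473f (0.90 and 0.34 at days 3 and 9), miR-3474 (0.83 and 0.33) and miR-3072-5p (0.45 at day 9). Without scaling they turned for miR-3091-5p (-0.83, -0.50 and -0.24; -0.84 at day 3 against the median tested miRNA), miR-3473f (0.01 at day 3), miR-3072-5p (0.58, or 0.57 against the median tested miRNA) and miR-3572-5p in controls (0.02). miR-3072-5p turned with all probes (0.05), miR-3473e at day 3 with the mean of its probes (-0.01) and the authors' values (-0.19), and miR-3960 with the authors' values (-0.20 and -0.12 at days 3 and 9). Before the median miRNA was subtracted, the normexp changes of the entries called lower were still below 0. The unscaled signal of miR-3091-5p was likewise still higher in TSN.

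Leaving out 1 array gave 10 to 11 higher and 9 to 10 lower at day 3, 5 to 7 and 12 to 14 at day 9, and 5 to 9 and 7 to 8 at day 21, with 7 higher without TSN day 21 replicate 1 or 2 or control day 21 replicate 1 and 5 without control day 21 replicate 4. In TSN it gave 11 to 20 higher and 0 to 1 lower (0 without TSN day 21 replicate 3 or TSN day 9 replicate 2), in controls 0 to 0 and 0 to 5. From day 3 to 9 it gave 0 to 1 and 2 to 6 (6 without TSN day 3 replicate 1 or TSN day 9 replicate 3), from day 9 to 21 9 to 14 and 1 to 1 (14 without control day 9 replicate 2), and from day 3 to 21 0 to 4 and 0 to 0, the first count moving in 14 of 16 fits. The excess of detected entries on TSN arrays was 7.33 to 9, 5.58 to 7.58 and 7.08 to 9.08 at days 3, 9 and 21; without any 1 TSN day 9 array the exact permutation p at day 9 was 0.0571.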

Other observations

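miR-3535, which lies within Ncl, the nucleolin gene, was not tested because it was well above background on 6 control arrays but never on all 4 of a group. It was chosen after its values were seen. Its unscaled signal was 7.79, 6.23, 22.8 and 24.8 in controls of day 3, 6.99, 6.38, 21.8 and 4.69 at day 9, and 3.69, 18.9, 31.7 and 11.5 at day 21. In TSN it was 0.855, 0.802, 1.59 and 0.909, then 3.64, 3.18, 4.56 and 4.22, and 2.00, 1.17, 1.11 and 1.27. Every TSN array lay below every control array of the same day, although the TSN arrays were brighter as a whole. Of the other entries detected in controls and not in TSN, miR-3085-3p had an unscaled signal of 6.46 to 9.35 in controls and 5.93 to 8.01 in TSN, and miR-3092-3p 5.44 to 8.40 and 4.68 to 8.34, so both overlapped.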
